A study of Oryza sativa with 10 samples.

Results

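In 32 rice (Oryza sativa) genes, transcript was clearly present in seeds of 1 genotype at both stages sampled and nearly absent from seeds of another. A gene was taken as on in a genotype when it had at least 5 CPM in both libraries of that genotype, and as off when it had under 0.5 CPM in both. CPM is the deposited read count of a gene times 1000000 over the total count of its library. Any other pair of values is called in between. Members are the genes on in at least 1 of the 5 genotypes and off in at least 1 other, which gave 32 of 55801 features and 0.183% of the 17475 genes that were on somewhere. LOC_Os09g02830, published as MADS78 and a targeted gene of the study, was left out. The members were chosen by their levels in all 10 libraries, so their differences between genotypes are a description and carry no test. The members go by locus identifier alone, since none of the 32 could be matched to a named entry of the RefSeq gene table used.

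Husk-free seeds had been harvested at 48 and 72 hours after fertilization (HAF), and every genotype gave 1 library at each stage. The genotypes were OE78 (line OE78-8, labelled as overexpressing MADS78), OE79 (line OE79-3, labelled as overexpressing MADS79), CR78 (line Cr78_8.22.2, CRISPR at MADS78), CR79 (line Cr79_11.25.3, CRISPR at MADS79) and wild type (WT). Each manipulation was thus 1 line, and an effect of the manipulated gene cannot be told apart from any other difference of that line. The promoter of the overexpression lines, the cultivar and the number of plants behind a library were not given in the sources used here. Nothing in the labels says that the libraries of a genotype came from separate plants.

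Both targeted genes belong to the type I class of MADS-box transcription factors, which in plants acts mostly in the female gametophyte and the young endosperm. The endosperm of a cereal first divides as free nuclei and then forms walls, which is the interval these stages cover. In rice, MADS78 and MADS79 are known as regulators of early seed development and of the timing of that change.

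Depth was 12267337 counts in CR79 72 HAF and 15349522 to 18040600 in the other libraries, deepest in WT 72 HAF. The on level of 5 CPM was therefore 61.3 to 90.2 reads and the off level of 0.5 CPM 6.13 to 9.02 reads. Among endosperm markers, Wx, the granule-bound starch synthase gene, had 35.7 to 618 CPM in the 72 HAF libraries, against 0 to 0.299 CPM at 48 HAF. NF-YB1, an endosperm transcription factor subunit gene, had 3.16 to 12.9 CPM at 72 HAF, against 0 to 0.0625 CPM at 48 HAF. Other listed endosperm markers were already present at 48 HAF: AGPS2 had 174 to 220 CPM, ISA1 13.8 to 36.0 and SSIIa 2.47 to 5.46. Their levels at 72 HAF were 340 to 1205, 63.1 to 229 and 62.5 to 357 CPM. GluB2 had no read at 48 HAF. At 72 HAF it reached 35.5 CPM in CR79 and 14.6 CPM in CR78. The overexpression lines had at most 0.506 CPM of it then, and WT had no read. Cab2R, a chlorophyll-binding protein gene of green tissue such as the pericarp, had 821 to 2752 CPM. None of 31 genes listed as markers of seed tissues, cell cycle, sugar use, hormones, heat shock and MADS families was a member. With 0.183% of the genes on somewhere being members, a list this short says nothing of the members. Wx, NF-YB1 and GluB2, off at 48 HAF, could not be on in any genotype under the rule. MADS79 (LOC_Os01g74440) had 0.456 and 2.33 CPM in OE79, against 1.11 and 1.96 CPM in WT, and was on in no genotype. MADS78 had 134 CPM in OE78 72 HAF and at most 0.375 CPM elsewhere, OE78 48 HAF included. HSP101, a heat shock chaperone gene, reached 146 CPM in the CR78 48 HAF library, with 9.18 to 17.8 CPM in the rest.

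None of the 32 genes was on in WT. They were off in WT in 27 cases and in between there in 5, and 9 had no WT read at all. CR79 held the on state of 18 members, OE79 of 17, OE78 of 10 and CR78 of 6, while 4, 7, 9 and 16 members were off in these lines. Summed over the 32 genes, the level was 471 and 653 CPM in OE78 at 72 and 48 HAF, 309 and 365 in OE79, 355 and 479 in CR78 and 506 and 674 in CR79, against 6.87 and 4.33 CPM in WT. The low WT sum follows from the states of these chosen genes and is no further result. Over all genes, 16556 were on in OE79, 16340 in OE78, 16053 in CR79 and 16052 in CR78, against 16360 in WT. Judged from 1 library of a genotype in place of both, the counts grew, since a gene then has to pass a cut only once there. A change with seed stage, a value near a cut or a state of that library can then add a gene. Which of these did so was not tested. There were 59 members without WT 72 HAF, of which 17 were on in WT. There were 86 members, 3 of them on in WT, without CR78 48 HAF. Without CR79 48 HAF there were 129 members, 23 of them on in WT and 53 off in WT. With both libraries of each genotype required, no gene was on in WT and off in a line at on levels of 5 and 10 CPM, and 3 were at 2 CPM.

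**Figure D1:**
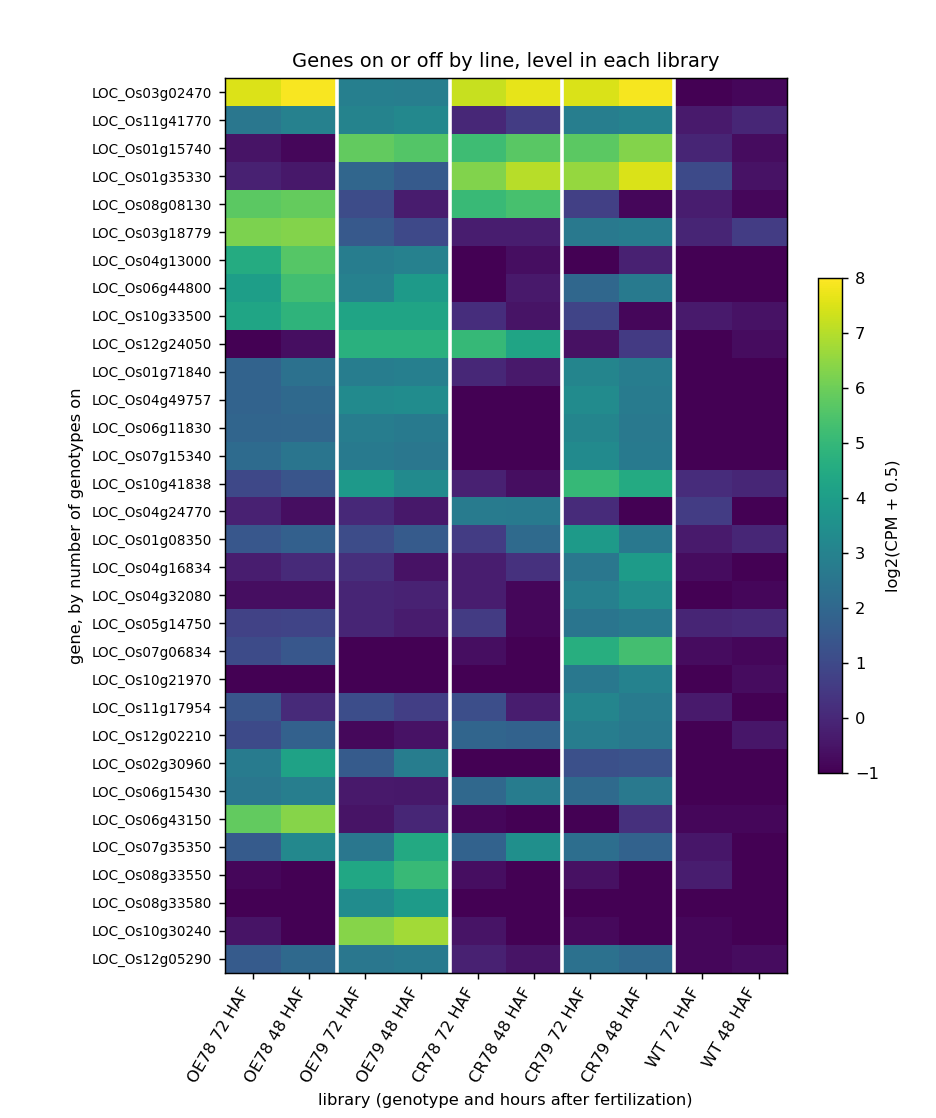
Level of each of the 32 genes (rows) in each of the 10 libraries (columns), as log2(CPM + 0.5); white lines separate genotypes, and rows run from genes on in 4 genotypes to genes on in 1. The 2 WT columns are dark in every row, while bright cells are spread over all 4 lines.

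Set against WT, OE79 had 16 genes on that were off in WT (0.0916% of the 17475 genes on somewhere), CR79 had 14 (0.0801%), OE78 had 9 (0.0515%) and CR78 had 4 (0.0229%). These 4 counts share the WT libraries. Their order rested on the on level: at 10 CPM the counts against WT were 6 for OE78, 5 for OE79, 4 for CR78 and 3 for CR79. The reverse state, on in WT and off in the line, had 0 genes (0%) for each of the 4 lines. Between lines the states ran both ways. OE79 had 10 genes on that were off in CR78 (0.0572%), 5 against OE78 (0.0286%) and 4 against CR79 (0.0229%). CR79 had 8 against CR78 (0.0458%), 5 against OE79 (0.0286%) and 4 against OE78 (0.0229%). OE78 had 5 against CR78 (0.0286%), 2 against OE79 (0.0114%) and 1 against CR79 (0.00572%). CR78 had 4 against OE78 (0.0229%) and 0 (0%) against each of the other lines. As the rule chose these genes, the shares describe the members and nothing is read from them.

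**Figure D2:**
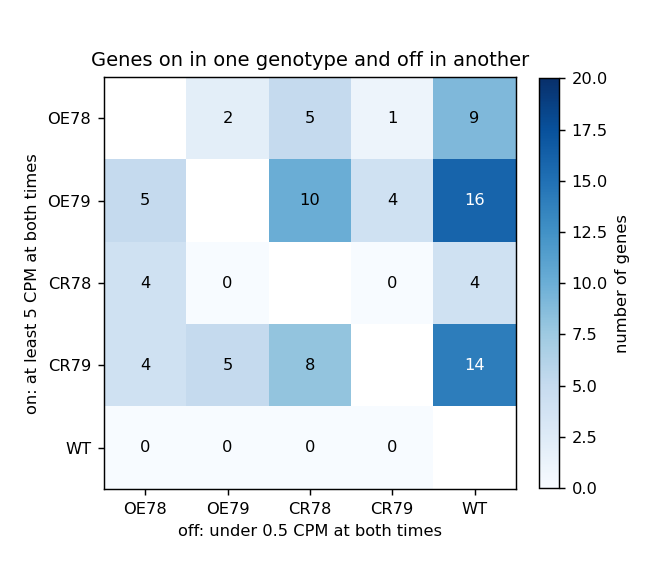
Number of genes on in the genotype of the row (at least 5 CPM at both times) and off in that of the column (under 0.5 CPM at both times). The WT row holds 0 throughout and the WT column holds the highest counts of the OE79, CR79 and OE78 rows, 16, 14 and 9.

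The on state was shared by lines in many arrangements. Of the 32 genes, 17 were on in 1 line, 12 in 2, 2 in 3 and 1 in 4. Both overexpression lines were on together in 5 genes and both CRISPR lines in 3. Only 1 gene was on in both overexpression lines and off in both CRISPR lines, and none was on in both CRISPR lines and off in both overexpression lines. The lines at MADS79, OE79 and CR79, shared the on state of 8 genes, and the lines at MADS78, OE78 and CR78, shared that of 2. OE78 shared it with CR79 in 3 genes, and OE79 with CR78 in 3. OE79 and CR79 were also the lines with the most members on, 17 and 18, against 10 in OE78 and 6 in CR78. The shared counts rested on the on level too. At 10 CPM OE79 and CR79 were on together only in LOC_Os01g15740, and OE78 and CR78 in LOC_Os03g02470 and LOC_Os08g08130. Nothing is read from these counts.

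The gene shared most widely was LOC_Os03g02470, on in all 4 lines. It stood at 184 and 243 CPM in OE78 at 72 and 48 HAF, 6.97 and 6.71 in OE79, 151 and 203 in CR78 and 179.8 and 237 in CR79, against 0 and 0.0593 CPM in WT. The single WT read came at 48 HAF. Pooled over the lines, the level was 5240 times that of WT (exact 95% limits 940.4 to 206981, counting error only). OE79 thus sat on the on side of the rule, yet far below the other 3 lines. The genes on either side were on in all 5 genotypes. LOC_Os03g02460 stood at 22.1 and 33.9 CPM in OE78, 15.6 and 23.4 in OE79, 12.2 and 29.1 in CR78 and 20.1 and 31.8 in CR79, against 15.1 and 18.0 CPM in WT. Its highest genotype mean, in OE78, was 1.69 times its lowest, in WT. LOC_Os03g02480 lay between 19.5 and 29.8 CPM in the lines, against 24.7 and 26.5 CPM in WT.

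LOC_Os01g15740 was on in OE79, CR78 and CR79 and off in OE78 and WT. It stood at 56.4 and 48.1 CPM in OE79, 36.6 and 50.9 in CR78, 53.0 and 80.7 in CR79 and 0.19 and 0.0625 in OE78, against 0.443 and 0.119 CPM in WT. The on and off values left no library between 0.443 and 36.6 CPM. LOC_Os12g24050 was on in OE79 and CR78, with 25.9 and 25.7 CPM in OE79, 32.0 and 18.6 in CR78, 0.163 and 0.952 in CR79 and 0 and 0.125 in OE78, against 0 and 0.119 CPM in WT. In both genes OE78 was as low as WT. LOC_Os08g08130 was on in both lines at MADS78, OE78 (52.2 and 58.1 CPM) and CR78 (33.4 and 41.1 CPM), with 1.63 and 0.299 CPM in OE79 and 1.14 and 0.0634 in CR79, against 0.333 and 0.0593 CPM in WT.

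**Figure D3:**
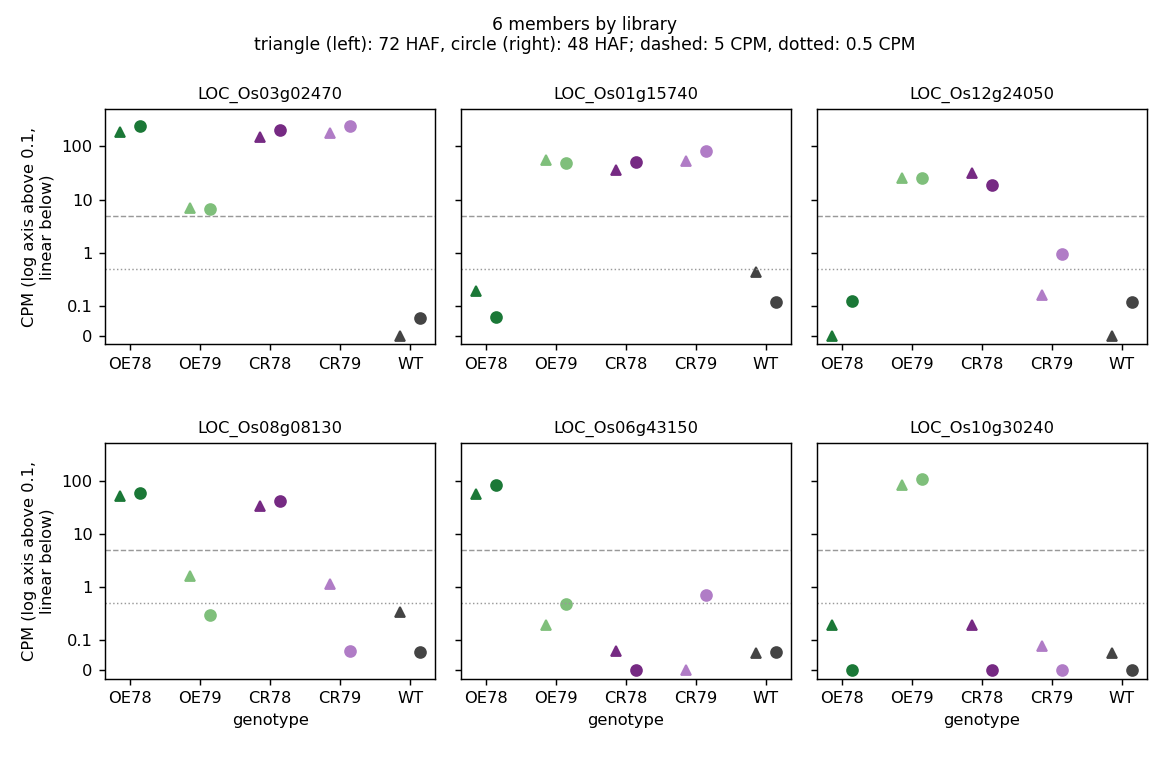
CPM of 6 members in each library by genotype (triangle 72 HAF, circle 48 HAF), on an axis that is logarithmic above 0.1 CPM and linear below; the dashed and dotted lines mark 5 and 0.5 CPM. Each gene has a different set of lines on the high side, from 4 lines in LOC_Os03g02470 to OE79 alone in LOC_Os10g30240, and WT is low in all 6.

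A group of genes on different chromosomes was missing from the same pair of genotypes, WT and CR78. LOC_Os04g49757 stood at 3.10 and 3.75 CPM in OE78, 9.32 and 9.94 in OE79, 0 and 0 in CR78 and 9.54 and 6.22 in CR79, against 0 and 0 CPM in WT. LOC_Os06g11830 stood at 3.29 and 3.44 CPM in OE78, 6.45 and 5.81 in OE79, 0 and 0 in CR78 and 8.15 and 5.77 in CR79, against 0 and 0 CPM in WT. LOC_Os07g15340 stood at 3.92 and 5.13 CPM in OE78, 5.99 and 5.45 in OE79, 0 and 0 in CR78 and 9.29 and 5.96 in CR79, against 0 and 0 CPM in WT. No read of any of the 3 genes was counted in the 4 libraries of WT and CR78, while the other 3 lines lay within a few CPM of each other. Pooled over OE79 and CR79, their levels were at least 192, 142 and 143 times the limit that 0 reads allows, which is 3 reads over the 4 libraries or 0.0454 CPM.

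Profiles were compared between all pairs of members by Pearson's r of log2(CPM + 0.5) over the 10 libraries, which share genotypes in pairs, so r is given as a description. Those 3 genes were joined by LOC_Os01g71840, LOC_Os11g41770 and LOC_Os12g05290 into a group of 6 linked at r of at least 0.97, from 6 chromosomes (1, 4, 6, 7, 11 and 12), with a lowest r of 0.969 between any pair. LOC_Os01g71840 had 3.10 and 4.57 CPM in OE78, 6.45 and 6.83 in OE79, 0.513 and 0.257 in CR78 and 7.99 and 6.53 in CR79, against 0 and 0 CPM in WT. LOC_Os11g41770 had 5.44 and 7.25 CPM in OE78, 7.69 and 8.74 in OE79, 0.513 and 1.03 in CR78 and 6.68 and 7.36 in CR79, against 0.277 and 0.474 CPM in WT. It was the member on in 3 lines without CR78. LOC_Os12g05290 had 2.47 and 3.75 CPM in OE78, 5.41 and 5.87 in OE79, 0.385 and 0.193 in CR78 and 4.65 and 3.74 in CR79, against 0.0554 and 0.119 CPM in WT. All 6 shared the order of OE79 and CR79 above or level with OE78, and of OE78 above CR78 and WT. As the genes were grouped by like profiles, this order describes the group and is no further result.

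**Figure D4:**
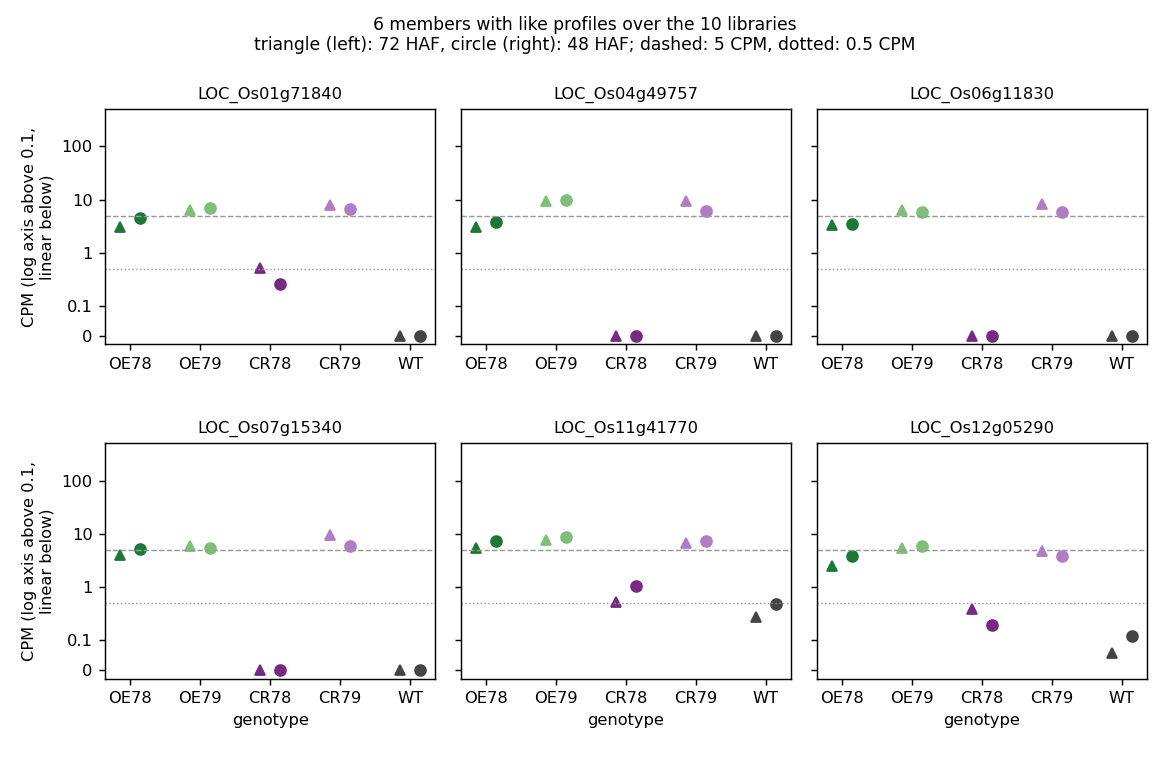
CPM of the 6 genes with like profiles in each library by genotype (triangle 72 HAF, circle 48 HAF), on an axis that is logarithmic above 0.1 CPM and linear below; dashed and dotted lines mark 5 and 0.5 CPM. OE78, OE79 and CR79 sit between 2.47 and 9.94 CPM, and CR78 and WT between 0 and 1.03 CPM.

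To see whether the cuts hid other such groups, every split of the 5 genotypes into a silent and an expressing set was counted with a lower bar, chosen after the members were seen. A gene counted when it had at most 3 reads over all libraries of the silent set and at least 1 CPM in every other library. Of 30 possible splits 7 held genes, 31 in all, of which 7 were members. WT was in the silent set of all 31, and none of the 15 splits with WT on the expressing side held a gene. The largest set, 9 genes, was silent in WT and CR78. Beside the 3 genes above and LOC_Os02g30960, it held LOC_Os01g36064, LOC_Os01g50020, LOC_Os06g40530, LOC_Os09g06920 and LOC_Os11g41730. These 5 missed the on level, with 1.27 to 5.15 CPM in OE78, OE79 and CR79, and had at most 1 read in all over CR78 and WT. The other splits held 4 genes silent in WT alone, 2 silent in CR78, CR79 and WT, and 6, 5, 3 and 2 present in OE79, CR79, OE78 and CR78 alone.

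The 4 genes silent in WT alone were LOC_Os03g02470 and, at lower level, LOC_Os06g39840, LOC_Os06g14870 and LOC_Os12g07180. LOC_Os06g39840 had 1.90 and 3.56 CPM in OE78, 2.74 and 3.17 in OE79, 1.60 and 1.80 in CR78 and 2.28 and 3.05 in CR79, against 0 and 0 CPM in WT. LOC_Os12g07180 had 3.16 and 4.63 CPM in OE78, 3.78 and 3.71 in OE79, 2.31 and 4.18 in CR78 and 3.02 and 2.85 in CR79, against 0 and 0.178 CPM in WT. The 4 lines were thus near each other in these 2 genes, unlike LOC_Os03g02470, where OE79 stood apart.

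LOC_Os10g41838 was also on in OE79 and CR79 and off in CR78, at a higher level. It stood at 13.9 and 9.46 CPM in OE79, 32.4 and 21.9 in CR79, 1.46 and 2.06 in OE78 and 0.385 and 0.129 in CR78, against 0.61 and 0.474 CPM in WT. WT was in between there by its 72 HAF library alone.

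Genes on in both overexpression lines were LOC_Os04g13000, LOC_Os06g44800 and LOC_Os10g33500, with LOC_Os03g02470 and LOC_Os11g41770 described above. LOC_Os04g13000 stood at 22.7 and 49.2 CPM in OE78, 6.58 and 7.30 in OE79, 0 and 0.129 in CR78 and 0 and 0.381 in CR79, against 0 and 0 CPM in WT. It was the member on in both overexpression lines and off in both CRISPR lines, and OE78 was the higher line at both times. LOC_Os10g33500 stood at 19.2 and 28.1 CPM in OE78, 18.6 and 18.7 in OE79, 0.642 and 0.193 in CR78 and 1.30 and 0.0634 in CR79, against 0.277 and 0.178 CPM in WT. LOC_Os06g44800 stood at 15.9 and 38.3 CPM in OE78, 7.30 and 14.4 in OE79, 0 and 0.257 in CR78 and 3.51 and 6.03 in CR79, against 0 and 0 CPM in WT. In this gene CR79 lay in between, so the levels formed a ladder from OE78 through OE79 and CR79 to CR78 and WT. The profile most like it was that of LOC_Os02g30960 (r = 0.989), with 6.27 and 17.5 CPM in OE78, 2.48 and 6.59 in OE79, 0 and 0 in CR78 and 1.79 and 1.97 in CR79, against 0 and 0 CPM in WT.

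Genes on in both CRISPR lines included LOC_Os01g35330, which was off in OE78. It stood at 78.3 and 131 CPM in CR78, 94.5 and 178 in CR79, 0.38 and 0.25 in OE78 and 3.39 and 2.45 in OE79, against 1.55 and 0.178 CPM in WT. Its WT and OE79 values were in between, so the gene is a member through OE78 and not through WT. LOC_Os03g18779 was on in OE78 and CR79 and off in CR78, with 73.9 and 80.9 CPM in OE78, 5.79 and 6.41 in CR79, 2.35 and 1.5 in OE79 and 0.321 and 0.321 in CR78, against 0.443 and 1.01 CPM in WT. OE78 was more than 10 times as high as any other genotype in both libraries.

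OE79 was the only line on in LOC_Os10g30240, LOC_Os08g33550 and LOC_Os08g33580, and all other genotypes were off in these 3 genes. LOC_Os10g30240 stood at 81.0 and 106 CPM in OE79, 0.19 and 0 in OE78, 0.193 and 0 in CR78 and 0.0815 and 0 in CR79, against 0.0554 and 0 CPM in WT. Its level in OE79 was 1479 times that of the other genotypes pooled (exact 95% limits 749.9 to 3430, counting error only). LOC_Os08g33550 stood at 20.1 and 33.3 CPM in OE79 and LOC_Os08g33580 at 9.77 and 15.0 CPM. The other 8 libraries had 0 to 0.333 CPM of the first and no read of the second, which puts OE79 at least 525 times above the limit of 3 reads over those 8 libraries. The 3 profiles had r between 0.995 and 0.997. Such values follow from taking genes on in OE79 and off in every other genotype, so nothing is read from them.

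These 2 genes of chromosome 8 were the only members within 10 places of each other in identifier order. They were 6.25% of the members. Beside this, 1.12% of all genes on in at least 1 genotype had a member within that distance. With 2 genes, nothing is read from these shares. The stretch between the 2 genes did not follow: LOC_Os08g33560 and LOC_Os08g33570 had 12 and 5 reads over all 10 libraries. The flanking LOC_Os08g33540 was present in every library, with 9.77 and 8.26 CPM in OE79 and 7.26 to 11.4 CPM in the other lines, against 8.98 and 8.07 CPM in WT. LOC_Os08g33590, on the other side, had 1.89 and 1.38 CPM in OE79, 1.44 to 2.53 in the other lines and 1.16 and 1.36 in WT. The on state of OE79 there thus skipped genes that lie between its 2 members. LOC_Os07g35350, the remaining gene with OE79 as its only on line beside LOC_Os12g05290, had 5.47 and 21.4 CPM in OE79, 2.47 and 8.63 in OE78, 3.02 and 10.7 in CR78 and 4.24 and 3.05 in CR79, against 0.222 and 0 CPM in WT. All 4 lines were above WT in it, and the rule picked OE79 because the other lines dipped below 5 CPM at 1 or both times.

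OE78 was the only line on in 3 genes. LOC_Os06g43150 stood at 56.6 and 82.3 CPM in OE78, 0.195 and 0.479 in OE79, 0.0642 and 0 in CR78 and 0 and 0.698 in CR79, against 0.0554 and 0.0593 CPM in WT. LOC_Os06g15430 had 5.38 and 6.69 CPM in OE78, 3.59 and 6.30 in CR78, 3.83 and 5.71 in CR79 and 0.261 and 0.239 in OE79, against 0 and 0 CPM in WT. Here 3 lines were close to each other and OE79 was low with WT. LOC_Os02g30960, described above, was the third. CR78 was the only line on in 1 gene, LOC_Os04g24770, with 6.23 and 6.11 CPM in CR78, 0.38 and 0.125 in OE78, 0.521 and 0.239 in OE79 and 0.571 and 0 in CR79, against 0.998 and 0 CPM in WT.

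CR79 was the only line on in 8 genes. At an on level of 10 CPM LOC_Os07g06834 was the 1 of these 8 that stayed a member. The members on in a single line were then 4 for OE78, 2 for OE79, 2 for CR79 and 0 for CR78. LOC_Os07g06834 was the highest of them, at 24.7 and 39.3 CPM in CR79, 1.58 and 2.25 in OE78, 0 and 0 in OE79 and 0.128 and 0 in CR78, against 0.111 and 0.0593 CPM in WT. LOC_Os04g32080 stood at 7.01 and 10.4 CPM in CR79 and at 0.0643 to 0.456 CPM in the other lines, against 0 and 0.0593 CPM in WT. LOC_Os10g21970 stood at 5.54 and 7.36 CPM in CR79 and had no read in the other lines, against 0 and 0.119 CPM in WT. In these last 2 genes every genotype but CR79 was off. LOC_Os01g08350 had 14.5 and 5.52 CPM in CR79 and 1.03 to 3.86 CPM in the other lines, against 0.277 and 0.474 CPM in WT. LOC_Os04g16834 had 5.46 and 14.9 CPM in CR79 and 0.18 to 0.707 CPM in the other lines, against 0.111 and 0 CPM in WT. The remaining 3, LOC_Os05g14750, LOC_Os11g17954 and LOC_Os12g02210, had 5.14 to 8.15 CPM in CR79, with other lines reaching 1.31, 2.09 and 3.34 CPM, against at most 0.534, 0.277 and 0.237 CPM in WT. LOC_Os05g14750 was a member through OE79, since WT was in between. In 5 of the 8 genes at least 1 CR79 library lay between 5 and 6 CPM, and CR79 72 HAF was the shallowest library.

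A sharp split with no genotype in between was the exception, found in 8 of the 32 genes, and 24 had at least 1 genotype between the cuts. The mean level over the on libraries of a gene had a median of 12.1 CPM and ran from 5.61 to 151 CPM. It was under 10 CPM in 13 genes, 10 to 50 CPM in 14 and 50 CPM or more in 5, while the median level of all genes on in a genotype was 30.5 CPM (the middle of the 5 genotypes). Just inside the on level were LOC_Os05g14750 (lower library 5.14 CPM in CR79), LOC_Os06g15430 (5.38 in OE78) and LOC_Os12g05290 (5.41 in OE79), and just outside it LOC_Os01g08530 (4.82 in CR78), LOC_Os01g57954 (4.81 in CR79) and LOC_Os02g28334 (4.68 in OE78). Just inside the off level were LOC_Os01g08350 and LOC_Os11g41770 (both 0.474 CPM in WT) and LOC_Os05g14750 (0.456 in OE79), and just outside it LOC_Os03g29864 (0.563 in OE78), LOC_Os11g40340 (0.571 in CR79) and LOC_Os01g36850 (0.665 in WT). LOC_Os01g08530, the first gene outside, had 12.96 and 4.82 CPM in CR78 and no read in any other library.

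The members lay on 11 of the 12 chromosomes, with 5 on chromosome 4, 4 each on chromosomes 1, 6 and 10, and none on chromosome 9. As a share of the genes on in some genotype, this ran from 0% on chromosome 9 and 0.0468% on chromosome 2 to 0.48% on chromosome 10. To describe the surroundings, the nearest gene with a mean of at least 5 CPM on each side of every member was read. Of these 62 distinct genes 48 were on in all 5 genotypes (77.4%), against 86.4% of the 17434 genes with such a mean. The highest genotype mean was a median of 1.43 times the lowest among neighbours, against 1.33 times over those genes, and it was at least 2 times in 11 neighbours (17.7%), against 8.12%. LOC_Os06g43150, on in OE78, lay between LOC_Os06g43140 (13.5 and 11.1 CPM in OE78, against 11.7 and 11.21 CPM in WT) and LOC_Os06g43160 (2.34 and 6.003 CPM in OE78, against 3.33 and 4.74 CPM in WT). LOC_Os06g43160 was not among the 62, and the neighbour read on that side was LOC_Os06g43170, 2 places away. Neighbours with a wide range were LOC_Os04g16722, 33 places before LOC_Os04g16834, and LOC_Os04g49720, 4 places before LOC_Os04g49757. The first had 1592 and 168 CPM in CR79 and 75.9 to 216 in the other lines, against 40.9 and 21.3 CPM in WT. Over the genotypes the second had 3.67 to 74.1 CPM at 72 HAF, against 0 to 0.0625 CPM at 48 HAF. Before LOC_Os11g41770 the nearest such gene was LOC_Os11g41650, highest in WT (mean 7.90 CPM) and lowest in OE79 (mean 3.44 CPM). Between them, under that level and chosen for its likeness to LOC_Os11g41770, LOC_Os11g41730 had 2.15 and 2.06 CPM in OE78, 2.41 and 1.98 in OE79 and 2.77 and 1.97 in CR79, with no read in CR78 and WT.

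Seed stage moved few members. This comparison was not used to choose them, although the rule, by asking for both times on 1 side of a cut, limits how far a member can move. With edgeR, fitted to the 10 libraries with genotype and time as additive terms, LOC_Os06g44800 and LOC_Os11g17954 passed, 2 of the 32 members, against 28.1% of 25354 genes tested. LOC_Os06g44800 was lower at 72 HAF (log2 fold change -0.95, SE 0.251, edgeR adjusted p = 0.0278), against 12.9% of all genes lower. It was lower in each of the 3 lines with its transcript. LOC_Os11g17954 was higher at 72 HAF (log2 fold change 1.41, SE 0.432, edgeR adjusted p = 0.0414), against 15.2% of all genes higher. It had 2.09 CPM in OE78, 1.69 in OE79, 1.73 in CR78, 8.15 in CR79 and 0.277 in WT at 72 HAF, against 0.563, 1.08, 0.321, 6.28 and 0 CPM at 48 HAF, so all 5 genotypes were higher. Leaving out either OE78 or either OE79 library took the adjusted p of LOC_Os06g44800 past the threshold of 0.05, and over all alternatives it lay between 0.00987 and 0.632. That of LOC_Os11g17954 lay between 0.00888 and 0.585 and missed the threshold without any 1 library of WT, OE78, OE79 or CR78. The next smallest were LOC_Os02g30960 (log2 fold change -0.94, edgeR adjusted p = 0.0989) and LOC_Os07g35350 (-1.08, edgeR adjusted p = 0.128) for lower levels, and LOC_Os10g41838 (0.50, edgeR adjusted p = 0.13) and LOC_Os04g24770 (1.61, edgeR adjusted p = 0.131) for higher ones. The median log2 fold change was -0.01 over the 32 members and -0.02 over all genes tested.

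Within the lines where a member was on there were 51 pairs of a 72 and a 48 HAF library. The level was higher at 72 HAF in 16 pairs and lower in 35, with a median log2 ratio of -0.19 and a range of -1.97 to 1.39. The lower pairs were 68.6% of the 51, beside 62.0% of the 65001 pairs over all genes on in these lines, whose median was -0.13. With TMM-scaled totals, an alternative chosen after the data were seen, 31 of the 51 were lower (60.8%, median -0.10), beside 51.6% over all such pairs (median -0.02). It moved more than 2-fold in 6 pairs and more than 4-fold in none. The largest was LOC_Os07g35350 in OE79, at 5.47 CPM at 72 HAF against 21.4 CPM at 48 HAF. LOC_Os03g02470 was low in OE79 at both stages, with 6.97 CPM at 72 HAF against 6.71 CPM at 48 HAF.

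**Figure D5:**
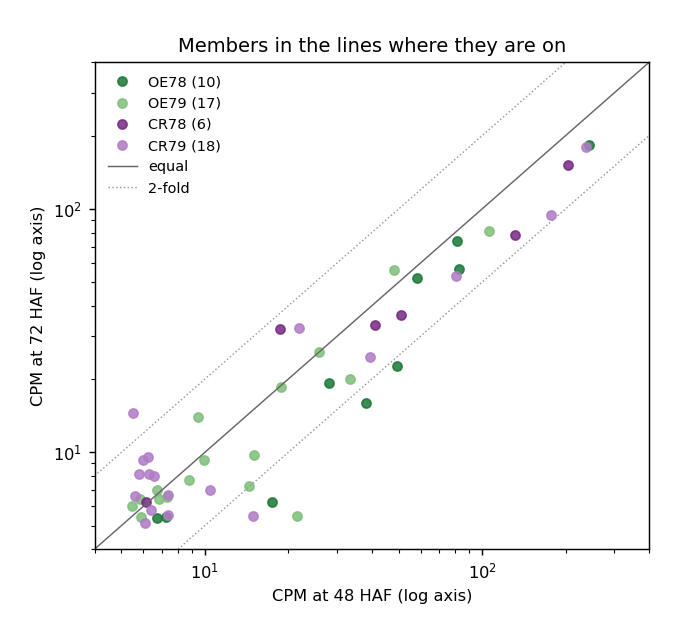
CPM at 72 HAF against CPM at 48 HAF (both log axes) for each member in each line where it was on, 51 points, with the number per line in the legend; the solid line marks equal levels and the dotted lines a 2-fold difference. All but 6 points lie within the dotted lines, and 35 lie below the solid line.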

How the data were processed

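RNA from seeds of 5 genotypes at 48 and 72 HAF was sequenced, with 1 library each. The deposited values are raw counts per gene. TopHat2 and HTSeq are named, with no version, per the submitters' processing notes. The build, annotation release, strand setting and filters were not given in the sources used here, so reads of gene copies and of overlapping or antisense genes may be split or merged. CPM was the count times 1000000 over the file total. No pair of libraries was identical. The time test used edgeR 4.0.16 (R 4.3.3, quasi-likelihood, TMM, minimum count of 10, Benjamini-Hochberg adjustment, threshold 0.05) with genotype and time as terms, 4 residual degrees of freedom, and estimated the biological coefficient of variation at 20.7%. The test was checked only on simulated data where all genotypes had equal means, which does not cover genes absent from some genotypes. All 32 members passed its filter. The genotype term is the pairing, since both stages of a line stand in the labels. Within a line, deviations from the stage mean correlated at 0.359 in CR79, 0.336 in OE79, 0.0968 in CR78, 0.0041 in OE78 and 0.344 in WT. DESeq2 1.42.0 was an alternative. The p-values measure the spread between these libraries only. Intervals and floors cover counting error only.

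Members, marker lists and the rule for named genes were chosen with earlier results of these data known. The rule took the highest members of each set of on lines, those on or off in 1 genotype alone, the neighbouring members, those nearest the cuts and those with the smallest p for time. The other members were named so that each is accounted for, and the genes of the lower bar and the neighbours were chosen after their values were seen. Names of marker genes follow identifiers published for rice.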

Additional observations from a re-analysis of the deposited data

Results flagged for a closer look

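LOC_Os01g08350 moved in opposite directions with time in the 2 CRISPR lines. The log2 ratio of 72 over 48 HAF was 1.39 in CR79 and -1.91 in CR78, with at least 10 reads in each of these libraries and a change of at least 1.5-fold each way. The ratio was also below 0 in OE78 (-0.38) and OE79 (-0.63), and WT had 0.277 CPM at 72 HAF against 0.474 CPM at 48 HAF. Only CR79 thus rose. The CR78 72 HAF value was 16 reads, and CR78 48 HAF was the library with raised HSP101. The difference between CR79 and CR78 was not tested, as each value is 1 library against 1. It was the only member with such a pair of lines.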

How the results depend on the processing

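With CPM from TMM-scaled totals there were 33 members, 32 of them shared. With the on level at 10 CPM there were 14 (11 off in WT), and with off at 0 reads 11 (9 off in WT). With the on level at 2 CPM there were 81, among them 64 members off in WT and 3 members on in WT. Leaving out 1 library gave 35 to 129 members, 27 to 53 off in WT and 0 to 23 on in WT. Leaving out a library can only add members, so that none was lost says nothing of stability. With on at 10 CPM, off under 0.25 CPM and TMM each applied in turn, 9 members were kept throughout. Of these, only LOC_Os04g13000, LOC_Os06g44800 and LOC_Os07g06834 were also members with off at 0 reads. Without both OE78 48 HAF and CR78 48 HAF, chosen after seeing the data, there were 90 members, 3 of them on in WT. CR78 48 HAF was the library with raised HSP101. OE78 48 HAF had 0.375 CPM of MADS78, against 134 CPM in OE78 72 HAF, which was kept. The run of 2 neighbours was the same at 5 and 20 places.

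For time, leaving out 1 library gave 4340 to 5822 genes and 1 to 4 members, with the lowest gene counts without either CR78 library (4364 without 48 HAF). Without both OE78 48 HAF and CR78 48 HAF there were 2399 genes and 1 member. With no replicate block, that is without the pairing by line, 6255 genes and 0 members passed, and 0 members had an unadjusted p under 0.05. DESeq2 gave 6624 genes and 3 members. The cause of these shifts was not tested. Fits that leave out a library have fewer libraries, and with the pairing by line the library left in that genotype adds nothing on time. Depth limits an off state to under 6.13 to 9.02 reads, not to absence.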

Other observations

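At the looser on level of 2 CPM, 3 genes were on in WT and off in a line. LOC_Os09g34950 had 0.391 and 0.12 CPM in OE79, 0 and 0.19 in CR79, 3.10 and 1.88 in OE78 and 3.27 and 1.99 in CR78, against 3.66 and 2.61 CPM in WT. LOC_Os05g37060 had 0.0633 and 0 CPM in OE78, against 3.10 and 2.14 CPM in WT, and LOC_Os01g56050 had 0.408 and 0.254 CPM in CR79, against 3.49 and 2.49 CPM in WT.

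LOC_Os07g24950 and LOC_Os07g24960, identifiers next to each other, were present in OE78 alone under the lower bar. They had 1.46 and 3.63 CPM (the first) and 1.71 and 6.07 CPM (the second) in OE78 at 72 and 48 HAF, with no read of the first in any other library and at most 0.163 CPM of the second. LOC_Os10g11250 had 2.95 and 4.18 CPM in CR78, and LOC_Os07g09880 had 4.48 and 3.49 CPM in CR79, each with no read in the other 8 libraries.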
